A study of Rattus norvegicus with 23 samples.

Results

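The colony-stimulating factors and their receptors were described in the lungs of elderly rats that had inhaled an aerosol of TiO2 nanoparticles. The group holds 8 genes of the 25597 gene symbols on the array, chosen by name: the ligands Csf1, Csf2, Csf3 and Il34, and the receptor genes Csf1r, Csf2ra, Csf2rb and Csf3r. All 8 had a probe that passed the filter on low signals, and they were tested among 23010 genes. RNA of the accessory lobe of male F344 rats was hybridised on single-colour arrays with 1 rat per array. The age is given as 19 months for every rat, on D0 and D28 alike. The exposed rats inhaled TiO2 nose-only at 10 mg/m3 in daily sessions of 6 h on 5 days per week, during 4 weeks, and the controls inhaled filtered air. Rats were killed at the end of exposure (D0, 6 controls and 5 exposed) or 28 days later (D28, 6 controls and 6 exposed). None of the groups carried a genetic modification or a second agent. For the exposed rats of D28 the titles and descriptions give day 28 and were followed, although another label gives day 0.

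Colony-stimulating factors are secreted proteins that keep myeloid cells alive and drive their growth and maturation. M-CSF, made from Csf1, and IL-34 share a receptor tyrosine kinase, CSF1R, which monocytes and macrophages carry. GM-CSF, made from Csf2, binds the alpha chain CSF2RA and signals through the common beta chain CSF2RB, and in the lung it is required for alveolar macrophages to mature and to clear surfactant. G-CSF, made from Csf3, binds CSF3R on granulocytes and is the main factor for the release of neutrophils from bone marrow.

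The values are log2 processed signals after quantile normalization, in log2 units throughout, and signals of different probes cannot be set against each other. Each of Csf2, Csf3, Il34, Csf2ra, Csf2rb and Csf3r was read by a single 60-base probe, Csf1 and Csf1r by 2 each. The oligonucleotides of 4 of the genes with a single probe are shown. Every value of their gene rests on those 60 bases, and each has at least 1 forward reading frame free of stop codons. The same holds for Csf3 and Il34, whose oligonucleotides are not shown. The letters are those of the array files, with none in capitals because no part of a probe is singled out.
Csf2: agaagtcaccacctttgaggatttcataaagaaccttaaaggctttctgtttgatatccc
Csf2ra: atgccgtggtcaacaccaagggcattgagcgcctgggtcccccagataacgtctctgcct
Csf2rb: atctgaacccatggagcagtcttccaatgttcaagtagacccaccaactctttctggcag
Csf3r: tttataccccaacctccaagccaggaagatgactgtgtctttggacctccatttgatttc
The Csf2 probe lies on the minus strand of rn4 at chr10:39665887-39665946, the Csf3r probe on the plus strand at chr5:145393491-145393550 and the Csf2rb probe on the plus strand at chr7:116270933-116270992. The array files give no position for the Csf2ra probe. The Csf2ra probe had a GC content of 60.0% and the Csf2 probe of 38.3%, with a median of 43.3% over all 45598 probes.

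The probes did not measure all members equally well. The signals of Csf1, Csf2, Csf3, Il34, Csf2ra and Csf3r were well above background on all 23 arrays. Csf2rb was well above background on 7 of 23 arrays, so that its values lie near the detection limit, although they exceeded the negative controls on all 23. Of the Csf1r probes, A_44_P257582 was well above background on all 23 arrays and A_44_P503932 on 0 of 23. Their starts lie 43.8 kb apart on rn4, and the average of both was therefore read beside the first one alone. The Il34 probe was spotted 10 times on each array, where the SD of its spots within an array had a median of 0.078, below the SD between rats of every group.

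No member was differentially expressed between exposed and control rats on either day, where a differentially expressed gene (DEG) had a limma adjusted p below 0.05 and a fold change (FC) of at least 1.5. This was 0 of 8 on D0 with 1.79% of all genes tested, and 0 of 8 on D28 with 0.756%. At an unadjusted p below 0.05 without the FC limit, 1 of 8 passed on D0 (Csf1, 11.9% of all genes) and 2 of 8 on D28 (Csf2 and Il34, 11% of all genes). On D0, 6 of 8 had a higher mean in exposed rats and the median log2 FC of the members was 0.12, beside -0.00073 over all genes. On D28, 4 of 8 were higher and the median was -0.048, beside -0.0055 over all genes. The difference between the effects of D28 and D0 was past both thresholds for 0 of 8 members and for 0.0304% of genes, and 1 of 8 members (Csf2) had an unadjusted p below 0.05, as did 3.44% of genes. With Csf1r read by its detected probe instead of the average, 5 of 8 were higher on D0 (median 0.12) and 5 of 8 on D28, where the median was 0.086 and thus of the opposite sign.

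**Figure D1:**
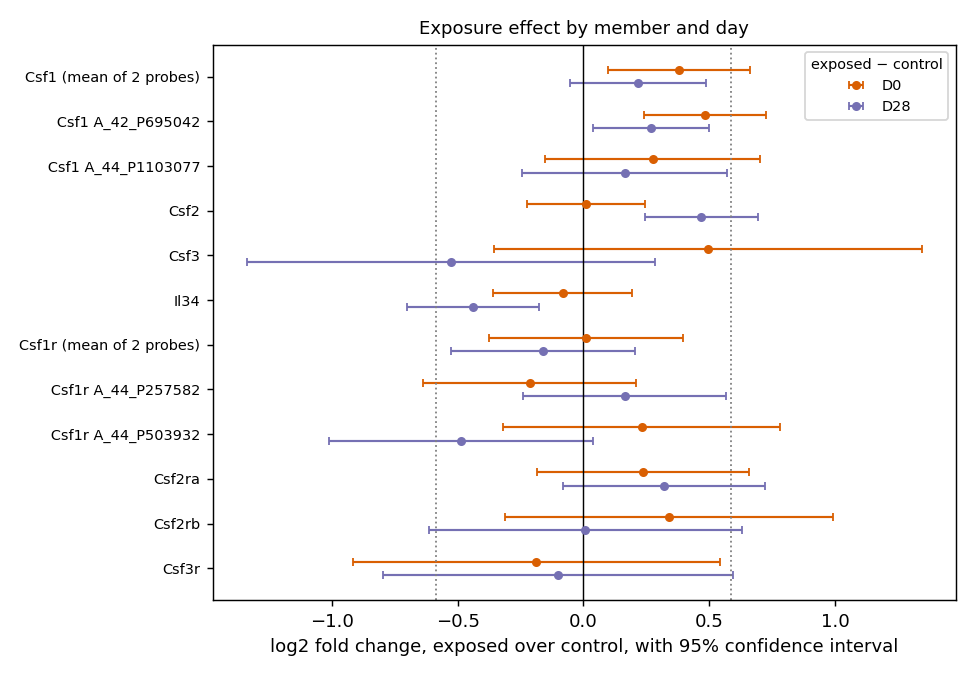
Log2 FC of exposed over control rats (x axis) for each member and for the single probes of Csf1 and Csf1r, on D0 (orange) and D28 (purple), with 95% confidence intervals from limma. Dotted lines mark a FC of 1.5 in either direction. The intervals of Csf1 on D0, of its probe A_42_P695042 on both days and of Csf2 and Il34 on D28 leave out 0, and no point lies beyond the dotted lines.

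Csf2, the gene of GM-CSF, was the member whose adjusted p passed on D28, with a FC below 1.5. Control rats of D28 had log2 signals of 7.87, 7.79, 7.62, 7.79, 8.08 and 7.49, and exposed rats had 8.16, 8.28, 8.16, 8.15, 8.48 and 8.23. All 6 exposed rats lay above all 6 controls, which held for 0.682% of all genes in this direction. The log2 FC was 0.47 ± 0.11 (standard error, SE), a FC of 1.38, with a limma adjusted p of 0.033. The two-sided exact permutation test of the same rats gave p = 0.00216, the smallest that 6 against 6 rats allow. The adjusted p alone was passed by 1.32% of genes on D28. The same probe tested among 40357 single probes had an adjusted p of 0.0513. Leaving out 1 rat at a time, limma's adjusted p was above 0.05, from 0.051 to 0.0765, without any one of control replicates 2, 3, 4 and 6 or exposed replicates 1, 2, 5 and 6 of D28.

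On D0, Csf2 signals were 8.10, 8.15, 8.15, 8.08, 7.86 and 8.22 in controls and 8.23, 8.32, 8.21, 7.71 and 8.06 in exposed rats. The groups overlapped, with a log2 FC of 0.010 (95% interval -0.22 to 0.25). The change of the effect from D0 to D28 was 0.46 (SE 0.16, limma unadjusted p = 0.00799, adjusted p = 0.983), which is not past the threshold. The controls of D28 were lower than those of D0 by a mean log2 difference of -0.32 (adjusted p = 0.189), and 4 of 6 lay below all controls of D0. The exposed rats of D28 had a mean of 8.24 ± 0.13 (SD, n = 6), beside 8.10 ± 0.13 (SD, n = 6) in controls and 8.11 ± 0.24 (SD, n = 5) in exposed rats of D0. The exposed rats of D28 were thus closer in mean to both groups of D0 than the controls of D28 were. The higher level in exposed rats on D28 was seen within each slide that held both groups. It was 0.49 on slide 1 and 0.34 on slide 3, with 2 exposed and 2 control arrays each. On slide 5 it was 0.79, from 1 exposed and 1 control array.

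Csf1, the gene of M-CSF, had the lowest adjusted p of the members on D0. The average of its probes was 8.01 ± 0.11 (SD, n = 6) in controls and 8.39 ± 0.21 (SD, n = 5) in exposed rats, a log2 FC of 0.38 ± 0.14 (SE, limma adjusted p = 0.179). The probes differed. A_42_P695042, on chromosome 2 of rn4 from 203292994 to 203293053, gave 10.29, 9.97, 10.19, 10.23, 10.16 and 10.24 in controls of D0 and 10.73, 10.66, 10.83, 10.46 and 10.64 in exposed rats. All 5 exposed rats lay above all 6 controls, which held for 1.58% of probes in this direction, and the two-sided exact permutation test gave p = 0.00216, the smallest possible for 5 against 6. Its log2 FC was 0.48 ± 0.12 (SE), a FC of 1.40 that is under the limit, with a limma adjusted p of 0.0319 over single probes, where 1.82% of probes passed the adjusted p. The other probe, A_44_P1103077, is annotated to a predicted transcript of Csf1, and the starts of the probes lie 3.28 kb apart. It had a log2 FC of 0.28 (limma adjusted p = 0.838) with overlapping groups.

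On D28 the probe A_42_P695042 gave 10.11, 9.98, 9.73, 10.14, 10.00 and 9.77 in controls and 10.18, 10.25, 10.04, 10.73, 10.10 and 10.06 in exposed rats. The groups overlapped, and 3 of 6 exposed rats were above all controls. The log2 FC of 0.27 (95% interval 0.038 to 0.50) had an adjusted p of 0.399. Within slides, the exposed mean of this probe on D0 was higher by 0.76, 0.23, 0.44 and 0.59 on slides 1, 3, 4 and 5. For D0, slides 1 and 5 held 1 exposed and 1 control array each, slide 3 held 1 and 2, and slide 4 held 2 and 2. On D28 it was higher by 0.54, 0.012 and 0.48 on slides 1, 3 and 5, where slide 5 held 1 exposed and 1 control array. The other probe, A_44_P1103077, had a log2 FC of 0.16 on D28 (limma adjusted p = 0.891) with overlapping groups. Its exposed minus control difference was 0.26, 0.11, 0.36 and 0.18 on slides 1, 3, 4 and 5 on D0. On D28 that difference was 0.15, -0.0015 and 0.70 on slides 1, 3 and 5.

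Il34, the second ligand of CSF1R, had lower values in exposed rats on D28 without passing the adjusted p. Controls had 11.18, 11.67, 11.41, 11.73, 11.54 and 11.52 and exposed rats 10.87, 10.85, 11.54, 10.93, 10.96 and 11.27. Of the exposed rats 4 of 6 lay below all controls, while replicate 3 lay among the highest controls. The log2 FC was -0.44 ± 0.13 (SE, limma adjusted p = 0.0999; two-sided exact permutation p = 0.0195). On D0 the log2 FC was -0.083 (95% interval -0.36 to 0.19), with controls from 11.09 to 11.41 and exposed rats from 10.91 to 11.44. Controls of D28 were higher than those of D0 by 0.27 (unadjusted p = 0.0451, adjusted p = 0.364 by limma), so that the exposed rats of D28, at a mean of 11.07, were near the exposed rats of D0 at 11.16.

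Csf3, the gene of G-CSF, varied widely between arrays, in part with the slide. Every array of slide 3 had a signal between 6.06 and 6.72, whatever its group. On D0 controls had 6.39, 6.19, 6.68, 7.44, 6.49 and 7.08 and exposed rats 6.61, 7.41, 8.13, 6.72 and 7.16. On D28 controls ranged from 6.06 to 8.71 and exposed rats from 6.23 to 7.57, and the exposed rats lay wholly inside the range of the controls. The log2 FC was 0.49 on D0 (95% interval -0.36 to 1.35) and -0.53 on D28 (-1.34 to 0.28), and the difference between the days of -1.02 (SE 0.57, unadjusted p = 0.0847 by limma) was not past the threshold. Within slides, the exposed minus control difference on D28 was -1.23 on slide 1, 0.19 on slide 3 and 0.40 on slide 5. On D0 it was 0.42, 0.28, 0.22 and 1.05 on slides 1, 3, 4 and 5. Neither direction was established.

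**Figure D2:**
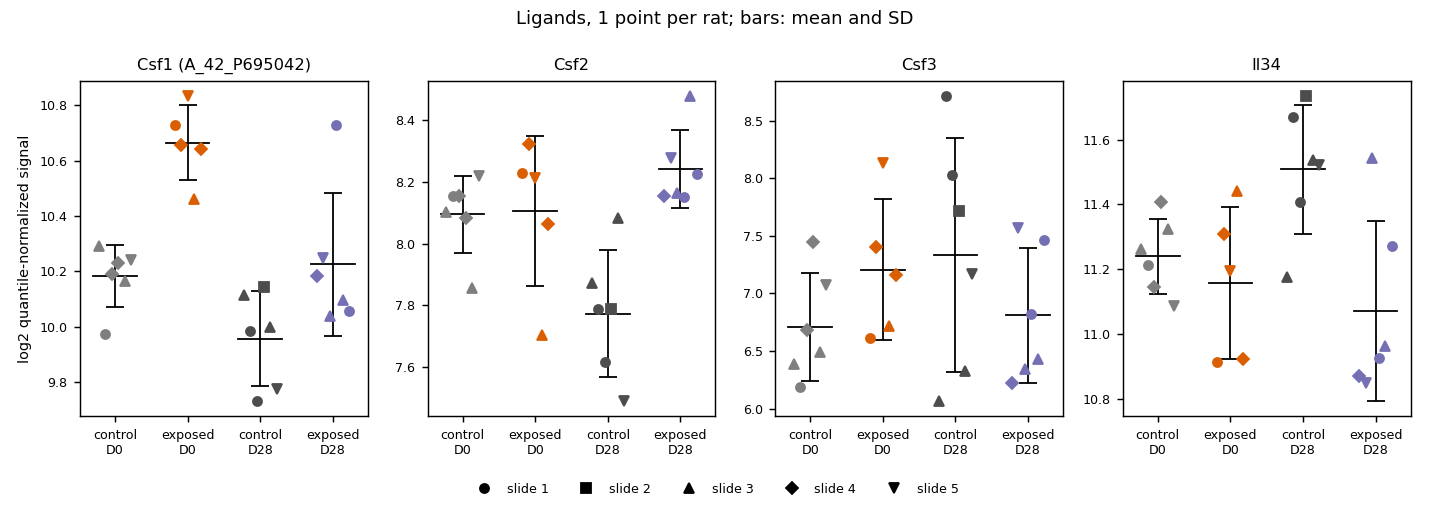
Log2 quantile-normalized signal (y axis) of the 4 ligand genes in each rat, by group; lines and bars give the mean and SD, and marker shapes the slide. The exposed rats lay above all controls on D0 for the Csf1 probe shown, A_42_P695042, and on D28 for Csf2. The groups overlap in the other comparisons, and those of the Csf1 probe that is not shown overlapped on both days.

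Of the receptor genes, Csf1r was read from the probe well above background. It gave 9.57, 9.75, 9.73, 9.41, 9.69 and 9.25 in controls of D0 and 9.31, 9.24, 9.07, 9.75 and 9.40 in exposed rats, a log2 FC of -0.21 (95% interval -0.64 to 0.21, adjusted p = 0.926). On D28 controls ranged from 8.15 to 9.41 (median 9.04) and exposed rats from 8.62 to 9.64 (median 9.11), a log2 FC of 0.16 (-0.24 to 0.57, adjusted p = 0.89). The groups overlapped on both days. The average with the undetected probe had the opposite sign on both days, at 0.009 on D0 and -0.16 on D28. The clearest contrast of this probe was between the controls, which were lower on D28 than on D0 by a log2 difference of -0.61 (SE 0.19, limma unadjusted p = 0.0048, adjusted p = 0.18). In this contrast 5 of 6 controls of D28 lay below all controls of D0, and the exact permutation p was 0.00433. The lowest of these, at 8.15, was replicate 4, alone on slide 2 and read with the later software version. Its 75th percentile of processed signal, 3470, was the highest of all arrays.

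Csf2ra, the alpha chain that binds GM-CSF, was 8.31 ± 0.32 (SD, n = 6) in controls and 8.55 ± 0.36 (SD, n = 5) in exposed rats of D0. On D28 it was 7.93 ± 0.30 and 8.25 ± 0.39 (SD, n = 6 each). The log2 FC of 0.24 and 0.32 had limma adjusted p of 0.816 and 0.61, with 2 exposed rats above all controls on each day. Csf2rb, the shared beta chain, was 3.73 ± 0.33 and 4.07 ± 0.38 on D0 and 3.94 ± 0.84 and 3.94 ± 0.41 on D28, all near background. Csf3r, the receptor of G-CSF, was 8.32 ± 0.71 in controls and 8.13 ± 0.57 in exposed rats of D0 and 7.79 ± 0.75 and 7.69 ± 0.24 on D28. Its log2 FC of -0.19 and -0.10 had intervals from -0.92 to 0.54 and from -0.80 to 0.59, and that of D28 reaches a FC of 1.5 in both directions.

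**Figure D3:**
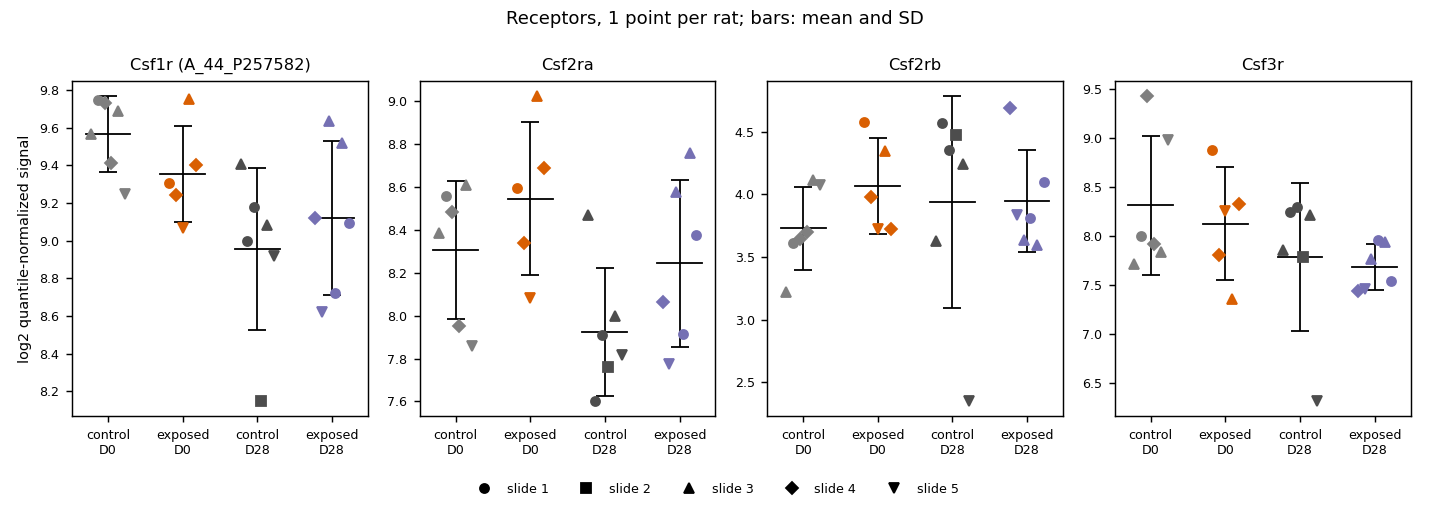
Log2 quantile-normalized signal (y axis) of the 4 receptor genes in each rat, by group; lines and bars give the mean and SD, and marker shapes the slide. The exposed and control rats overlap for each gene on both days. A control of D28 (replicate 4, alone on its slide) had low Csf1r (8.15) and another low Csf3r (6.32).

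Between the controls of the 2 days, 0 of 8 members were past both thresholds, beside 0.608% of all genes. At an unadjusted p below 0.05, Csf2 and Il34 passed, 2 of 8 beside 13.2% of genes, and 3 of 8 with Csf1r read by its detected probe. Csf2ra was lower on D28 by -0.38 (adjusted p = 0.404) and Csf3r by -0.53 (adjusted p = 0.532), neither past the threshold. Age, housing, time after exposure and, in part, slide cannot be told apart in this contrast. Slide 4 held 2 controls of D0 and 0 of D28, and slide 2 held 1 control of D28 alone.

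The arrays of a group differed from each other in a pattern that joined receptors, ligands and cell markers, and that also followed the slide. On slide 3, every array lay above its group mean for Csf1r (0.00013 to 0.52) and Csf2ra (0.071 to 0.54). For Csf3, every array of slide 3 lay below it (-1.27 to -0.22). On slide 5, every array lay below its group mean for Csf1r and Csf2ra. Permutations moved arrays freely between slides, so the p values do not separate rats from slides. Deviations from the group means were correlated over the 23 arrays for the 28 pairs of members and for each member with the mean of macrophage, monocyte, neutrophil and type II pneumocyte markers, 60 relations in all. Csf1r was taken from its detected probe. After Benjamini-Hochberg adjustment of permutation p over the 60 relations, 8 had an adjusted p below 0.05 for Pearson's r. In bulk tissue, fewer cells of a type and less RNA per cell cannot be told apart.

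Csf3r followed the neutrophil markers closely, with r = 0.90 and Spearman's rho = 0.86 (permutation p = 1e-05 for each, the smallest that 100000 permutations can give, adjusted p = 3e-04). Without the 2 arrays farthest in Csf3r, r was 0.83, and within slides it was 0.88 on slide 1 (6 arrays) and 0.99 on slide 3 (7 arrays). Of the 23010 genes tested, 0.00869% had an r with these markers at least as high. The neutrophil list held 11 genes tested, among them S100a8, S100a9, Cxcr2 and Mmp8. Its mean per array ranged from 8.54 to 9.32 in controls and from 8.55 to 9.14 in exposed rats on D0, and from 8.24 to 9.12 and from 8.59 to 8.85 on D28, so that exposed and control rats overlapped as they did for Csf3r.

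Csf1r followed the macrophage markers (r = 0.72, rho = 0.74, adjusted p = 0.0015 for each) and Csf2ra (r = 0.80, rho = 0.86, adjusted p = 3e-04 for each), and Csf2ra followed the macrophage markers (r = 0.61, rho = 0.62, adjusted p = 0.0214 and 0.0202). Without the 2 arrays farthest on the x axis these were 0.66, 0.90 and 0.60. Of all genes, 0.465% had an r with the macrophage markers at least as high as Csf1r and 3.59% as Csf2ra, and 1.4% had an r with Csf2ra at least as high as Csf1r. Csf1, the ligand, ran against both receptors: r was -0.79 with Csf1r (rho = -0.75, adjusted p = 4e-04 and 0.0015) and -0.68 with Csf2ra (rho = -0.73, adjusted p = 0.0036 and 0.00168). Without the 2 arrays farthest in Csf1, r was -0.74 and -0.65. Both Csf1 probes had a negative r with Csf1r, at -0.57 and -0.72. With the average of both Csf1r probes, r was -0.55 with Csf1, 0.55 with Csf2ra and 0.68 with the macrophage markers. The value with Csf1r was -0.87 on slide 1 and -0.64 on slide 3, and that with Csf2ra was -0.74 and -0.20. Csf3 ran against Csf2ra (r = -0.69, rho = -0.68, adjusted p = 0.00288 and 0.0059) and the monocyte markers (r = -0.62, rho = -0.60, adjusted p = 0.0145 and 0.0202), and leaving out the 2 arrays farthest in Csf3 gave -0.62 and -0.54. On slides 1 and 3 the former was -0.51 and -0.13 and the latter -0.80 and -0.92. An r at least as low was found with Csf1r in 0.139% of genes for the value of Csf1, with Csf2ra in 2.17% for Csf1 and in 1.73% for Csf3, and with the monocyte markers in 0.4% for Csf3.

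The overall brightness of the arrays moved with part of this pattern. The 75th percentile of an array's processed signal had an r of -0.74 with Csf1r, -0.59 with Csf2ra, 0.57 with Csf1, 0.51 with Csf3 and 0.52 with Csf2, and of 0.21 with Csf3r, in deviations over the 23 arrays. With it removed, r was -0.67 between Csf1 and Csf1r, 0.67 between Csf1r and Csf2ra, 0.68 between Csf1r and the macrophage markers and 0.89 between Csf3r and the neutrophil markers. The other 4 relations then had r of -0.51 between Csf1 and Csf2ra, 0.49 between Csf2ra and the macrophage markers, -0.56 between Csf3 and Csf2ra and -0.59 between Csf3 and the monocyte markers. With the same quantity as a covariate in limma, the log2 FC of Csf2 on D28 was 0.52 (adjusted p = 0.0103) and that of Csf1 on D0 was 0.40 (adjusted p = 0.073).

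**Figure D4:**
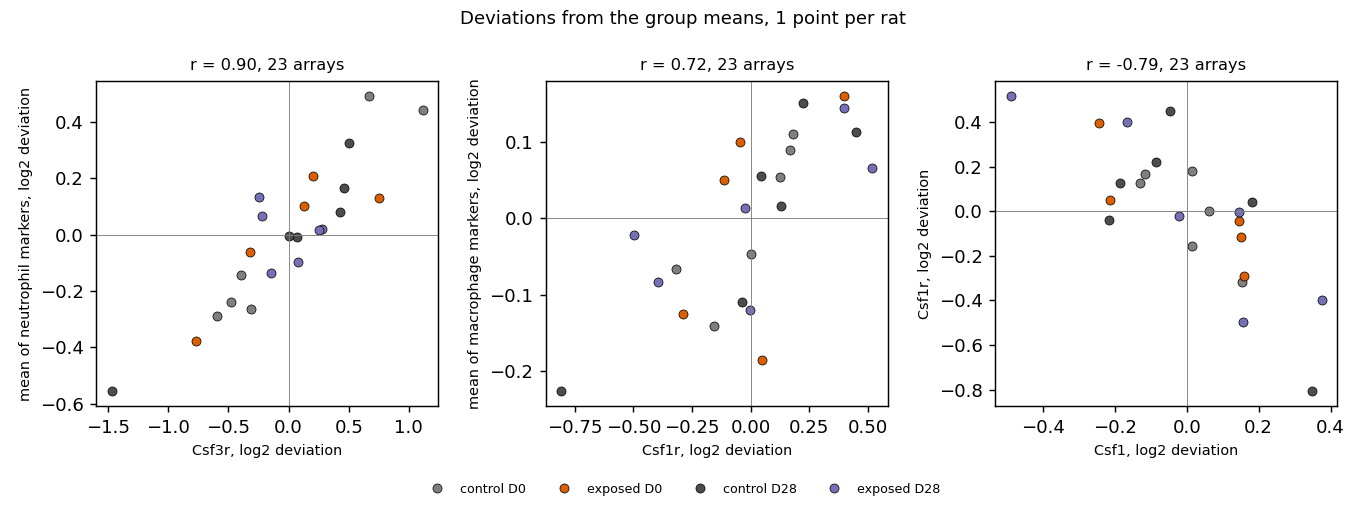
Deviations from the group means in log2 units for Csf3r against the mean of neutrophil markers, for Csf1r (its detected probe) against the mean of macrophage markers, and for Csf1 against Csf1r; 1 point per rat, 23 in each panel, coloured by group. Points rise together in the first 2 panels (r = 0.90 and 0.72) and run in opposite directions in the third (r = -0.79).

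The genes most like Csf1 over the 23 arrays, by Pearson's r of the signals, were LOC102555426 (r = 0.84), Slc16a6 (0.83), Gpr37l1 (0.82), Nr0b2 (0.82) and LOC102548818 (0.81). In deviations from the group means their r was 0.82, 0.76, 0.71, 0.88 and 0.71.

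Genes around the factors were described in 6 lists, of which 119 genes were tested. The lists were chosen with earlier results of these data known, so their counts describe them and are no test of them. Whether the genes depended on the factors in these lungs was not tested. On D0, 5 of 119 were DEGs and all 5 were higher in exposed rats, beside 1.79% of all genes in either direction and 1.1% higher. On D28, 1 of 119 was a DEG, beside 0.756%. Among 22 inducers of the factors and genes of mRNA decay, Tnf, a cytokine known to induce Csf1, Csf2 and Csf3, was the only DEG of D0. Controls had 6.89, 7.56, 7.70, 7.22, 7.20 and 6.61 and exposed rats 8.42, 8.15, 8.39, 7.74 and 8.58, a log2 FC of 1.06 ± 0.22 (SE, adjusted p = 0.00886). All 5 exposed rats were above all controls, which held for 1.94% of all genes in this direction. On D28 its log2 FC was 0.26 (adjusted p = 0.737), and the median of the list was 0.036 on D0 and 0.043 on D28.

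Of the 18 genes listed as dependent on GM-CSF in alveolar macrophages, 14 were higher on D0 (median 0.16) and 11 on D28 (median 0.051). Bhlhe41, a transcription factor of alveolar macrophage renewal, was a DEG on D0 with a log2 FC of 0.68 ± 0.17 (SE, adjusted p = 0.0285), and had 0.54 on D28 (adjusted p = 0.118). Its adjusted p on D0 rose to between 0.0523 and 0.084 without any one of control replicates 1, 3, 4 and 5 or exposed replicates 1, 3 and 4, and it was a DEG in 13 of 18 other settings. Its partner Bhlhe40 had 8.20, 8.25, 8.11, 8.23, 8.71 and 8.74 in exposed rats of D28 and 7.80, 7.83, 7.66, 8.10, 7.83 and 7.99 in controls. The exposed rats lay above all controls, which held for 0.682% of all genes in this direction on D28. The log2 FC of 0.51 (adjusted p = 0.0173) was below the FC limit. On D0 the log2 FC of Bhlhe40 was 0.072 (adjusted p = 0.949). As for Csf2, its controls were lower on D28 (7.87 ± 0.15) than on D0 (8.52 ± 0.088, SD, n = 6 each).

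Of 21 genes listed as dependent on CSF1R in monocytes and macrophages, 18 had a higher mean in exposed rats on D0 and 18 on D28. The medians were 0.28 and 0.24. The 18 genes were not all the same, since Adgre1 and Apoe were lower on D0 alone and Mrc1 and Trem2 on D28 alone. Itgam, the integrin CD11b of myeloid cells, was a DEG on both days. It was 7.67 ± 0.14 (SD, n = 6) in controls and 8.66 ± 0.22 (SD, n = 5) in exposed rats on D0, a log2 FC of 0.99 ± 0.12 (SE, adjusted p = 0.000123). On D28 it was 7.52 ± 0.21 and 8.45 ± 0.22 (SD, n = 6 each), a log2 FC of 0.93 ± 0.12 (SE, adjusted p = 3e-04). The groups did not overlap on either day, which held in this direction for 1.94% of all genes on D0 and 0.682% on D28. C1qb, a complement component made by macrophages, was a DEG on D0 (log2 FC 0.65, adjusted p = 0.00781) and had 0.24 on D28 (adjusted p = 0.533). Without exposed replicate 4 of D0 its log2 FC was 0.50, below the limit. Cd68, a lysosomal marker of macrophages, passed the adjusted p on both days with log2 FC of 0.55 and 0.42 that are below the limit.

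Among 19 granulocyte genes listed as responsive to G-CSF, Lcn2 was a DEG on D0 with a log2 FC of 1.65 ± 0.28 (SE, adjusted p = 0.00139). Lcn2 is an iron-binding protein of neutrophil granules that epithelium also makes. It had 0.73 on D28 (adjusted p = 0.231). Fpr1, a receptor of formylated peptides on neutrophils, had a mean of 6.57 in exposed rats and 7.38 in controls of D0. Its log2 FC was -0.80 (adjusted p = 0.111), and it was a DEG in 7 of 18 other settings. Of the genes other than Lcn2, 7 were higher and 11 lower on D0, and the median of the list was -0.061 on D0 and -0.18 on D28. No gene of the 31 for receptor signalling (median 0.10 and 0.034) or of the 8 receptor partners tested (0.013 and 0.043) was a DEG on either day.

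**Figure D5:**
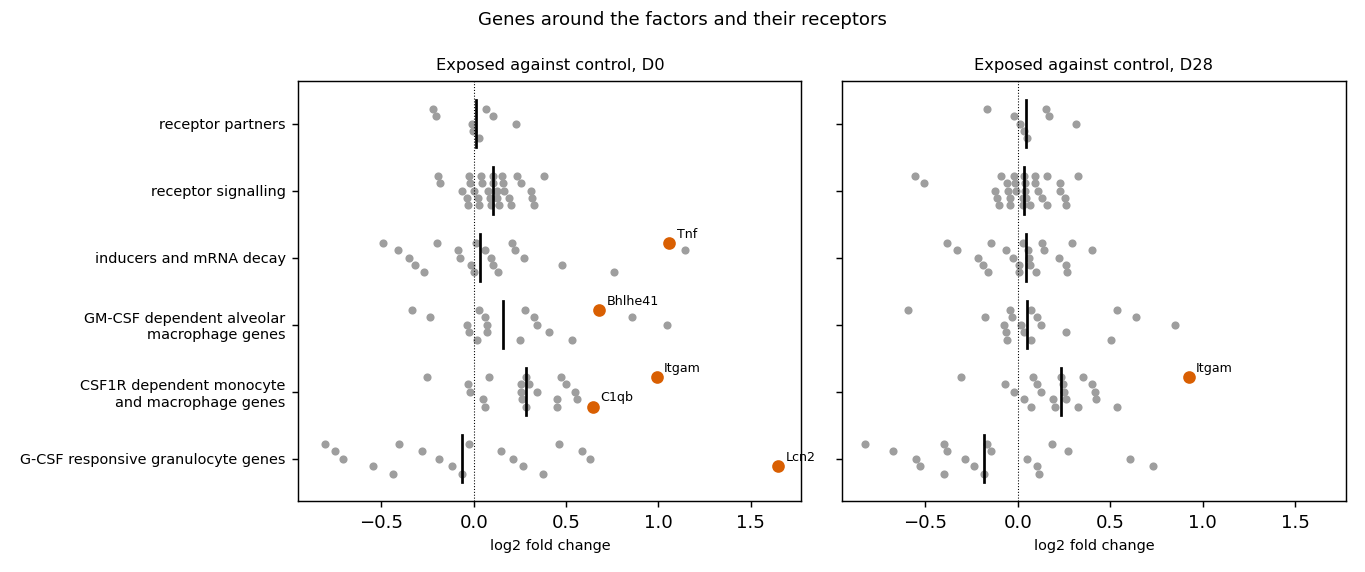
Log2 FC (x axis) of exposed over control rats for each gene of the 6 lists, on D0 and D28; black bars are list medians and large orange points are DEGs. The DEGs lie at positive log2 FC, 5 on D0 and Itgam alone on D28.

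Markers of cell types were read beside these results. Lung markers were present as labelled, with all 8 markers of type II and all 6 of type I pneumocytes well above background on every array. Of 12 macrophage markers, 10 were higher in exposed rats on both days (median 0.50 and 0.21), and C1qb and Siglec1 were DEGs on D0. Their mean per array ranged from 9.44 to 9.69 in controls and from 9.81 to 10.15 in exposed rats on D0, and from 9.25 to 9.62 and 9.62 to 9.88 on D28, while the detected Csf1r probe had log2 FC of -0.21 and 0.16. Type II pneumocyte markers were higher in 8 of 8 and 7 of 8, and type I markers in 0 of 6 on both days. Endothelial markers were higher in 0 of 7, erythroid in 0 of 3 and mesothelial in 0 of 3 on both days. The DEGs among the markers of other cell types were Clec9a of dendritic cells, higher on D0 (log2 FC 1.00), Tcf21 of fibroblasts and Wt1 of mesothelium, lower on D0 (-0.66 and -0.62), and Myl7 of cardiac muscle, lower on D0 and D28 (-0.60 and -0.63). Their part in the values of the members was not tested.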

How the data were processed

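The authors deposited the scanner output of 23 single-colour arrays, which holds intensity values per spot from Agilent Feature Extraction (version 11.0.1.1 by the header on 22 arrays, 12.0.1.1 on 1), and one table of intensity values normalized between arrays. The processed signal, corrected for background by the software, was used here. The members were found by the gene name in the file of the later version, and members and lists were chosen with earlier results of these data known. Outlier spots were set missing. The filter kept 40417 of 45598 probes, those that exceeded the 95th percentile of the 308 negative controls of an array in 5 arrays or more, log2 signals were quantile normalized, and probes were averaged per gene. One limma model (3.58.1, R 4.3.3) with 4 group means and 19 residual degrees of freedom was fitted to 23010 genes, with Benjamini-Hochberg adjustment over all of them. No batch term was used. The fit was tested on simulated data for exposed against control rats of D0. Of 100 genes changed by 1 log2 unit, 55 were DEGs, and 93 of 100 changed by 2 were. Of 22810 unchanged genes, 7 were DEGs. Smaller changes were not simulated. Named were the members, called genes of each list, the 5 genes most like the member with the lowest adjusted p on D0, and genes behind counts of 5 or fewer. Between 69.5 and 77.9% of spots per array were well above background, and the number of arrays limits the precision. Replicate numbers were not used as pairs in the main fit. The arrays came from 5 slides, and control D28 replicate 4 was alone on its slide and had the later software version. All 23 arrays held here were used, 5 of them of exposed rats on D0, where the methods give 6 rats per group. The choice of the detected Csf1r probe for the relations, the older gene names and the covariate were made after seeing the data.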

Additional observations from a re-analysis of the deposited data

Results flagged for a closer look

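In 6 of 48 groups of values (8 members and the 4 single probes of Csf1 and Csf1r, by 4 groups), the extreme rat stood apart from the rest by Dixon's ratio of its gap to the range of the group, where chance flags about 1 in 20. The 48 are not independent, since the averages of Csf1 and Csf1r hold the single probes. For the 8 members alone it was 3 of 32. For Csf2 in controls of D0, replicate 5 was lowest at 7.86 with the next at 8.08 (ratio 0.625). For Csf3r in controls of D28, replicate 6 was lowest at 6.32 with the next at 7.79 (ratio 0.746). For the average of the Csf1r probes in exposed rats of D0, replicate 4 was highest at 6.40 with the next at 5.57 (ratio 0.824), and the same rat was highest on the undetected probe A_44_P503932 (3.04, ratio 0.877). On that probe, exposed replicate 6 of D28 also stood apart (2.40, ratio 0.872). For the Csf1 probe A_42_P695042 in exposed rats of D28, replicate 4 was highest at 10.73 with the next at 10.25 (ratio 0.693).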

How the results depend on the processing

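The count of members past both thresholds was 0 in each of the 4 comparisons under all settings run, except that the adjusted p alone called 1 on D28 (Csf2), and it stayed 0 when each array was left out. Csf2 on D28 kept its direction in 17 of 17 other settings (log2 FC 0.36 to 0.52) and in 23 of 23 fits without 1 array (0.41 to 0.53). Its adjusted p was below 0.05 in 13 of these 17 and 15 of these 23, and was 0.143 with only the arrays of the day, 0.056 with array quality weights, 0.0508 with the slide as a block and up to 0.0765 without 1 rat of D28. Csf1 on D0 kept its direction (0.28 to 0.45 and 0.34 to 0.44), and its adjusted p was below 0.05 with array quality weights (0.0128) and with the probe of the highest mean signal (0.0181, log2 FC 0.48). Il34 on D28 kept its direction (-0.44 to -0.38 and -0.53 to -0.39), with an adjusted p below 0.05 in 1 of 23 fits without 1 array (0.0267, without exposed replicate 3 of D28).

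The average of both Csf1r probes changed sign on D0, from 0.0091 to -0.034 with 75th percentile scaling, -0.082 with cyclic loess, -0.10 with normexp, -0.11 with the median signal, -0.11 with the deposited table, -0.21 with the filter by spots well above background, -0.21 with the probe of the highest mean signal, -0.069 with array quality weights and -0.023 with the array signal as a covariate. On D28 it changed from -0.16 to 0.033 with normexp, 0.16 with the filter, and 0.16 with the detected probe. Csf2 on D0 was -0.0047 with the deposited table and -0.0011 with the replicate block. Csf2rb on D28 was -0.044 with 75th percentile scaling, -0.052 with cyclic loess, -0.058 with normexp, -0.050 with the median signal and -0.054 with the deposited table. Without 1 array, log2 FC ranged from -0.17 to 0.084 for Csf1r on D0, from -0.044 to 0.11 for Csf2 on D0, from -0.38 to 0.035 for Csf3r on D0 and from -0.31 to 0.13 for Csf2rb on D28. None of these passed a threshold, and the cause of the changes of sign was not tested.

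The number of DEGs in the lists was 11 on D0 and 5 on D28 with an unadjusted p, and 3 on D28 with the adjusted p alone. Without 1 array it ranged from 4 to 6 on D0, where Tnf, Itgam and Lcn2 were DEGs in 23 of 23 fits, Bhlhe41 in 16 and C1qb in 22. In other settings it reached 7 (array quality weights, slide as a block). Bhlhe41 was no DEG with normexp, the median signal, the deposited table, the probe of the highest mean signal or the older gene names. Fpr1, lower in exposed rats, was one with the median signal, the deposited table, only the arrays of the day, array quality weights, either block and an unadjusted p. On D28 it ranged from 1 to 2, the latter without exposed replicate 2, and Itgam was a DEG in 23 of 23. For the replicate block, same-numbered exposed and control rats of a day had r from -0.23 to 0.46, and 3 of 11 pairs were over 0.1. In 2 of 11 the exposed array correlated best with its own number. Such values cannot decide whether the numbers pair the rats. The block left the members' counts at 0 and the adjusted p of Csf2 on D28 at 0.063, and moved the DEGs among all genes from 412 to 356 on D0 and from 174 to 138 on D28. With only the arrays of the day, 42 genes were DEGs on D28, with normexp 221 on D0 and 94 on D28, and with an unadjusted p 945 and 664. For the difference between days the 7 DEGs became 14 with normexp. Signals near background limit Csf2rb.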
